A study of Mus musculus with 8 samples.

Results

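Mir143, Mir204, Mir125a and Mir210 are mouse microRNA genes whose fragments were listed, under piRNA names, in a small RNA profile of sperm. A listed name was counted as a member when its locus lay inside a window around 1 of the 4 hairpins in the mm10 genome. The 4 windows held 27 of the 20210 names in the data. Of these, 18 were among the 13450 names of the MC-LR table (5 on Mir143, 4 on Mir204, 6 on Mir125a and 3 on Mir210). All 27 were among the 17375 names of the shRNA table (13, 5, 6 and 3). The loci were chosen by their fold changes measured here, Mir210, Mir204 and Mir125a by those under MC-LR, and Mir143 and Mir204 by those with the Hsp90aa1 shRNA. In those comparisons their values are given as a description, with no test. Tests are given for Mir143 under MC-LR and for Mir125a and Mir210 with the Hsp90aa1 shRNA. Nearly all names of a table differ between its groups, so these names too may have been listed for a difference in the same libraries. Their p-values are thus no independent evidence of a fall.

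All 8 libraries were of sperm from Balb/c mice at 8 months of age, in 4 groups of 2 libraries lettered A and B. Sperm exposed to MC-LR were set against control sperm. The design text of the series speaks of 2 doses of MC-LR, but the labels of the samples give no dose. Whether MC-LR A and B had the same dose is thus not known. MC-LR is microcystin-LR, a peptide made by cyanobacteria that blocks the phosphatases PP1 and PP2A. Sperm with an shRNA against Hsp90aa1, which encodes the chaperone HSP90 alpha, were set against sperm with a negative-control shRNA. How the shRNA was delivered, and whether A and B stand for separate animals, is not stated in the labels. The p-values therefore reflect no more than the scatter of A and B, which could be technical. The tables hold small RNAs, and the level of Hsp90aa1 mRNA was not analysed here.

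By the GENCODE M21 annotation of GRCm38 (mm10), the Mir143 hairpin of 63 nt lay at 18:61649196–61649258 on the minus strand. The Mir204 hairpin of 68 nt was at 19:22750605–22750672 on the plus strand, in introns of all 18 Trpm3 transcripts that span it. The Mir125a hairpin of 68 nt was at 17:17830812–17830879 on the plus strand, inside Spaca6, a gene for a sperm surface protein needed for fusion with the egg. Of the 3 Spaca6 transcripts that span it, 1 had an exon there, 17:17830719–17830858. The Mir210 hairpin of 110 nt was at 7:141221384–141221493 on the minus strand. Only Trpm3 and Spaca6 were looked up as host genes, so whether Mir143 and Mir210 lie inside another gene was not tested. Every member lay on the strand of its hairpin.

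A microRNA gene is transcribed as a hairpin, from which the nucleases Drosha and Dicer cut a duplex of a 5p and a 3p arm. One arm is loaded into an Argonaute protein, and its seed, bases 2 to 8, pairs with target mRNAs, which are then repressed. Fragments of 1 arm often differ by a base or a few at the 3′ end (isomiRs), which leaves the seed in place, whereas another 5′ end moves the seed. piRNAs, the class the study named its fragments after, are longer RNAs bound by PIWI proteins in germ cells. Mir143 is known from smooth muscle, where it is made together with Mir145a. Mir204 lies in an intron of Trpm3 and is known from epithelia of the eye and kidney. Mir125a is the mammalian relative of the worm gene lin-4 and is clustered with Mir99b and Mirlet7e. Mir210 is induced by hypoxia through HIF1A.

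Members were 18 to 25 nt long, with a median of 23 nt in the MC-LR table and 22 nt in the shRNA table, against medians of 27 and 26 nt over all names of those tables. All members but only 35.8% of all names were at most 25 nt long in the MC-LR table, and 44.1% of all names were so in the other table. All 12 members of the MC-LR table that lay on an annotated mature of Mir204, Mir125a or Mir210 began at its 5′ end, as did all 13 of the shRNA table, so each kept the annotated seed. The mature sequences, from RefSeq on GRCm38.p6, are shown with the seed in capitals, together with miR-211-5p and miR-125b-5p, relatives that carry the same seeds.
mmu-miR-204-5p: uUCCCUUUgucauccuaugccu
mmu-miR-211-5p: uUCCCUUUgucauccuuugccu
mmu-miR-125a-5p: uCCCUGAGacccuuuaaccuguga
mmu-miR-125b-5p: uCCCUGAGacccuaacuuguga
mmu-miR-210-3p: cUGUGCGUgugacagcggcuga
Among 1674 distinct mature sequences of the RefSeq table, 3 carried the seed of miR-204-5p, 5 that of miR-125a-5p and 1, miR-210-3p itself, the seed UGUGCGU.

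The members differed from these matures in where they ended. On Mir204 the 2 longest names ran past the annotated 3′ end, by the bases in capitals.
piR-mmu-48724873: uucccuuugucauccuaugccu
piR-mmu-36971037: uucccuuugucauccuaugccuG
piR-mmu-17599573: uucccuuugucauccuaugccuGA
On Mir210 the same held for 2 of 3 names.
piR-mmu-10887287: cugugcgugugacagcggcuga
piR-mmu-10872739: cugugcgugugacagcggcugaU
piR-mmu-11439145: cugugcgugugacagcggcugaUC
On Mir125a the leading name, of 22 nt, was shorter than the annotated 24-nt mature, and 1 name of 25 nt was longer.
piR-mmu-48791142: ucccugagacccuuuaaccugu
piR-mmu-13826650: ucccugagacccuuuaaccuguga
piR-mmu-10889166: ucccugagacccuuuaaccugugaG
The sequences of the listed names, also past the mature ends, were cut from the reference at their coordinates and not taken from reads. Bases that differ from the genome could thus not be seen. The hairpins are shown here from RefSeq, with the bases under listed names in capitals.
Mir204 hairpin: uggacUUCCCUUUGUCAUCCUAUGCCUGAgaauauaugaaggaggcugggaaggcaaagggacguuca
Mir125a hairpin: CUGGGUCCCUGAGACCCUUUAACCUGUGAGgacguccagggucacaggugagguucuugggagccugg
Mir210 hairpin: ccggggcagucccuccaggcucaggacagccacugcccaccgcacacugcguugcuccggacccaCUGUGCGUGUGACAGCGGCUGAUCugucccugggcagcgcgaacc
Mir204 and Mir125a were covered on the 5p arm and Mir210 on the 3p arm, with no listed name on the opposite arm. The sixth Mir125a member, piR-mmu-49250958 at 17:17830799–17830816, was an 18-nt fragment that ended on the base before miR-125a-5p, with its last 5 bases inside the hairpin (capitals).
piR-mmu-49250958: acacugccggccuCUGGG
Mir143 was covered on both arms, by 11 names on the 3p side and 2 on the 5p side in the shRNA table, and its 3p names had 3 different 5′ ends.

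**Figure D1:**
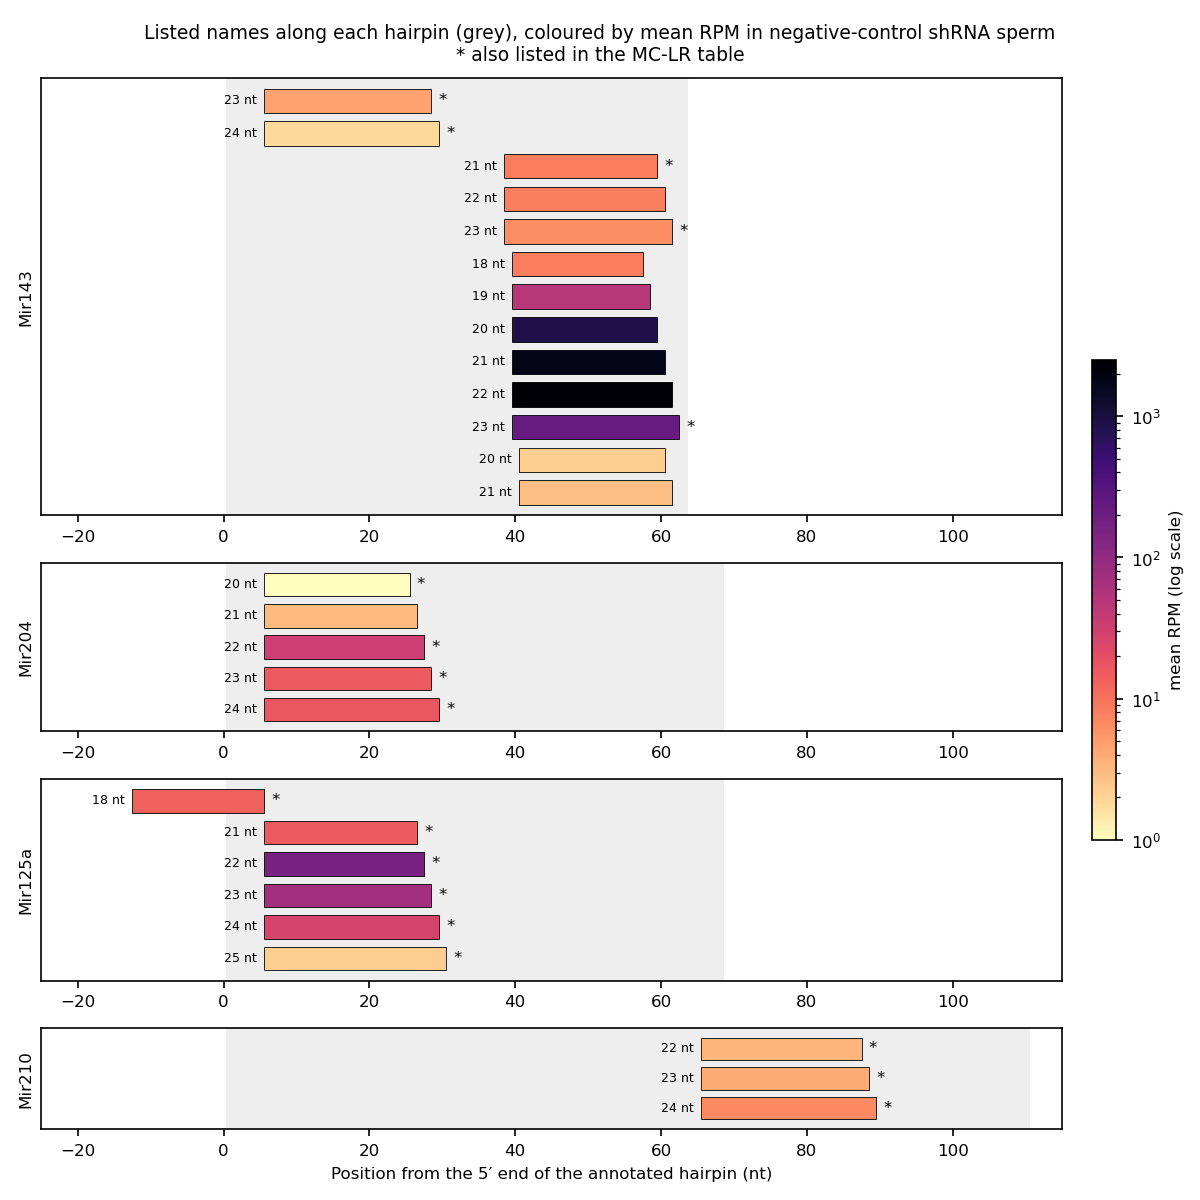
Position of the 27 names along each annotated hairpin (grey), in nt from the hairpin's 5′ end, with the length written beside each bar and its colour giving the mean RPM in negative-control shRNA sperm on a log scale. Asterisks mark the 18 names that the MC-LR table lists as well: of the 13 Mir143 names 5 carry one, and the dark 20 to 22 nt bars of the 3p side do not.

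The values were RPM, reads scaled to the library total, which was 5941139 and 6560723 reads under MC-LR, 14634370 and 4960467 in control, 13360928 and 10832261 with the Hsp90aa1 shRNA and 9710383 and 13380630 with the negative-control shRNA (A and B). A level of 3 reads, taken as the floor, was 0.205 to 0.605 RPM. Summed over all names, the lists held 12.5% and 11.7% of the total under MC-LR, 38.1% and 35.3% in control, 4.98% and 3.18% with the Hsp90aa1 shRNA and 27.8% and 32.5% with the negative-control shRNA. Only 2 names listed for MC-LR and 0 listed for the shRNA had group means within 0.5 of each other on the log2 scale, so nearly all names listed in a table differ between its groups. Of the MC-LR table, 12451 names (92.6%) were lower under MC-LR with no overlap of the groups, as were 17337 (99.8%) of the shRNA table with the Hsp90aa1 shRNA. A fall of a member, per library total, has to be read against that background. In bulk sperm, fewer cells of a type and less RNA per cell cannot be told apart.

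Summed over their listed names, all 4 loci were lower under MC-LR than in control, without overlap of the groups. Mir143 came to 97.1 and 119 RPM under MC-LR, against 269 and 198 RPM in control (108 ± 15.4 against 233 ± 50.3, SD, n = 2 each), 2.16-fold lower. The 5 Mir143 names listed here held only 247 of the 5350 RPM of Mir143 with the negative-control shRNA. Their sum thus does not stand for the whole locus. Mir204 came to 41.7 and 43.4 RPM under MC-LR, against 146 and 100.4 RPM in control (42.6 ± 1.20 against 123 ± 32.0, SD, n = 2 each), 2.89-fold lower. The 2 MC-LR libraries lay close together at each locus, and control A was above control B at all 4. Mir125a came to 119 and 148 RPM under MC-LR, against 664 and 429 RPM in control (134 ± 20.7 against 547 ± 166, SD, n = 2 each), 4.09-fold lower. Mir210 came to 6.56 and 8.23 RPM under MC-LR, against 42.4 and 34.3 RPM in control (7.40 ± 1.18 against 38.4 ± 5.77, SD, n = 2 each), 5.18-fold lower. Of the 18 members, 16 had groups that did not overlap, beside 92.6% of all names. An exact permutation test of 2 libraries against 2 cannot go below p = 0.333, so sums and shares are given without a test.

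**Figure D2:**
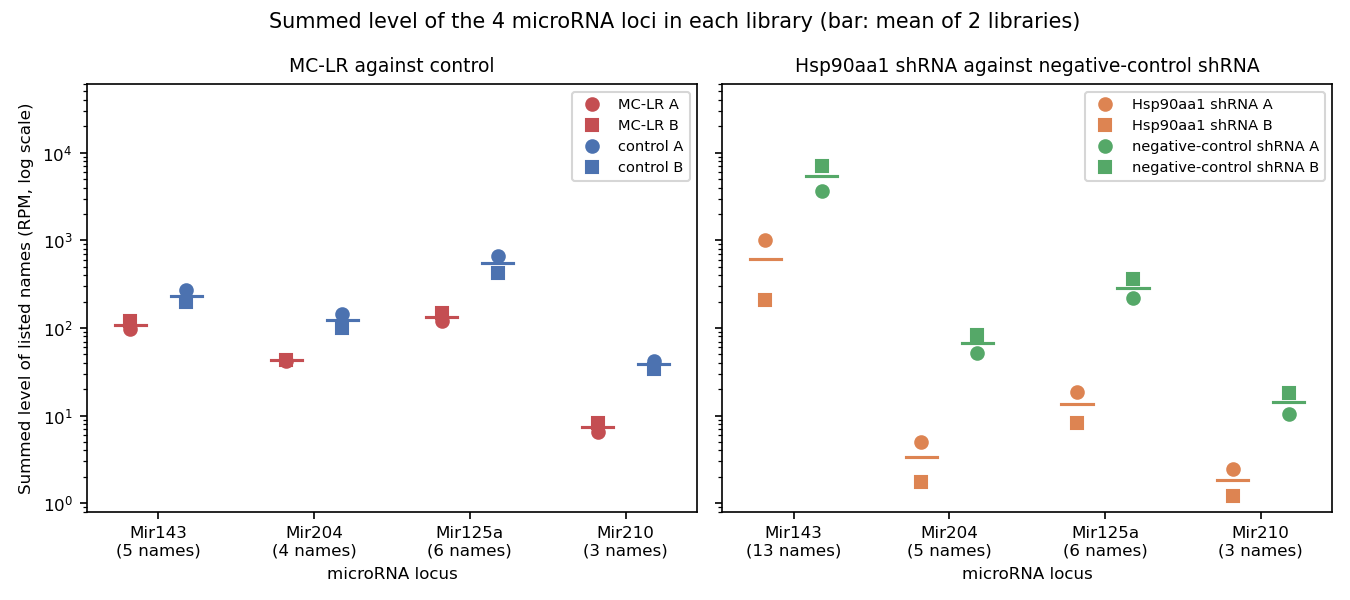
Summed RPM of the listed names of each locus in each library (log axis; circles, libraries A; squares, libraries B; bars, mean of 2), with MC-LR beside control on the left and Hsp90aa1 shRNA beside negative-control shRNA on the right. At each locus both MC-LR libraries lie below both control libraries and both Hsp90aa1 shRNA libraries below both negative-control shRNA libraries, and Mir143 has 13 listed names on the right against 5 on the left.

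Mir143 is the locus that could be tested under MC-LR, where 4 of its 5 names fell and piR-mmu-22902278 did not pass. Names were tested with limma on log2(RPM + 1) with Benjamini-Hochberg adjustment over all 13271 tested names, of which 73.1% were lower and 2.37% higher at an adjusted p below 0.05. The 4 of 5 is thus near the share of the whole list. The leading name, the 23-nt 3p fragment piR-mmu-37690755 at 18:61649197–61649219, had 88.9 and 110 RPM under MC-LR, against 245 and 179 RPM in control. It fell by 1.08 on the log2 scale (SE 0.35, limma adjusted p = 0.0187), and both MC-LR libraries were below both control libraries. The 3p names piR-mmu-48796578 and piR-mmu-49382661, whose 5′ ends lie 1 base upstream of the leading name's, fell with log2 fold changes of −1.15 and −1.08 (limma adjusted p = 0.0142 and 0.0216). On the 5p side piR-mmu-33875642 had 1.68 and 2.29 RPM under MC-LR, against 5.33 and 3.63 RPM in control, and fell by 0.87 (SE 0.36, limma adjusted p = 0.0457). With the replicate letter as a replicate block the limma adjusted p of that name was 0.0568. The other 5p name, piR-mmu-22902278, was at the floor with 3 and 3 reads under MC-LR (0.505 and 0.457 RPM), against 1.64 and 0.403 RPM in control, and its groups overlapped (log2 fold change −0.38, limma adjusted p = 0.292). Without control B it passed, at −0.83 (limma adjusted p = 0.00614). None of the 4 names that fell passed without MC-LR A or without MC-LR B, where the limma adjusted p of the 8 fits ran from 0.0623 to 0.258, and of all names 5259 were lower when MC-LR A was left out and 5373 when MC-LR B was, against 9703 with all libraries.

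For the 13 MC-LR names of the loci chosen in that comparison, the fits describe how the fall was spread. The median log2 fold change was −1.77 over the 6 Mir125a names, −1.86 over the 3 Mir210 names and −1.35 over the 4 Mir204 names, beside −1.08 over the 5 Mir143 names and −1.17 over all names tested. By edgeR with library totals, which does not add 1 RPM, these medians were −2.04, −2.34, −1.48, −1.26 and −1.64. On that scale the Mir204 median thus fell less than that of all names. Mir210's 23-nt name piR-mmu-10872739 had 1.01 and 1.22 RPM under MC-LR, against 11.8 and 10.5 RPM in control, a log2 fold change of −2.52. Its 24-nt neighbour piR-mmu-11439145, which is 1 base longer, had 4.54 and 5.33 RPM under MC-LR, against 21.9 and 19.2 RPM in control (−1.86). The MC-LR values of the 23-nt name rest on 6 and 8 reads. The lead of Mir125a, piR-mmu-48791142, had 61.9 and 71.2 RPM under MC-LR, against 372 and 215 RPM in control (−2.07), and its 23-nt form piR-mmu-49145621 had 30.6 and 41.6 RPM under MC-LR, against 154 and 124 RPM in control (−1.92). The upstream fragment piR-mmu-49250958 had 4.04 and 8.23 RPM under MC-LR, against 30.1 and 9.68 RPM in control (−1.42). Here control A was far above control B, which lay just above MC-LR B. On Mir204 the log2 fold change was −1.16 for the 22-nt name, −1.53 for the 23-nt name and −2.09 for the 24-nt name, an order that follows length. The 20-nt Mir204 name piR-mmu-48793037 had 0.673 and 0.915 RPM under MC-LR, against 2.87 and 0.806 RPM in control, and its groups overlapped.

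With the Hsp90aa1 shRNA the 4 loci were again lower without overlap of the groups. Mir143 came to 1003 and 211 RPM with the Hsp90aa1 shRNA, against 3614 and 7085 RPM with the negative control (607 ± 560 against 5350 ± 2454, SD, n = 2 each), 8.82-fold lower. Mir204 came to 5.01 and 1.75 RPM with the Hsp90aa1 shRNA, against 51.6 and 83.9 RPM with the negative control (3.38 ± 2.31 against 67.7 ± 22.8, SD, n = 2 each), 20.0-fold lower. Hsp90aa1 shRNA A was above B at every locus, and negative-control B above A. Mir125a came to 18.8 and 8.12 RPM with the Hsp90aa1 shRNA, against 218 and 358 RPM with the negative control (13.5 ± 7.54 against 288 ± 98.6, SD, n = 2 each), 21.4-fold lower. Mir210 came to 2.47 and 1.20 RPM with the Hsp90aa1 shRNA, against 10.3 and 18.2 RPM with the negative control (1.83 ± 0.898 against 14.3 ± 5.61, SD, n = 2 each), 7.77-fold lower. All 27 members had groups that did not overlap, beside 99.8% of all names.

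Mir125a and Mir210 could be tested there, and all 6 and all 3 of their names fell. Of the 16859 names tested in that table, 99.5% were lower and 0.219% higher at a limma adjusted p below 0.05, so a full count of falls is what the whole list shows. The lead piR-mmu-48791142 of Mir125a had 9.58 and 4.34 RPM with the Hsp90aa1 shRNA, against 117 and 199 RPM with the negative control. It fell by 4.36 on the log2 scale (SE 0.62, limma adjusted p = 0.00059). The 21, 23 and 24-nt forms piR-mmu-48870248, piR-mmu-49145621 and piR-mmu-13826650 fell as well, with log2 fold changes of −3.39, −4.07 and −3.35, as did the upstream fragment piR-mmu-49250958 with −3.06 (limma adjusted p from 0.00058 to 0.000874). That fragment had 0.374 and 0.462 RPM with the Hsp90aa1 shRNA, 5 reads in each library, against 5.46 and 20.6 RPM with the negative control. The 25-nt form piR-mmu-10889166 fell by 1.52 (limma adjusted p = 0.000615) but had only 2 and 1 reads with the Hsp90aa1 shRNA, against 52 reads over both negative-control libraries. Per library total that is 18.2-fold lower, with an exact 95% counting interval of 5.88 to 90.9-fold, and the fitted value understates the change of so low a name.

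On Mir210 the 24-nt name piR-mmu-11439145 had 0.748 and 0.462 RPM with the Hsp90aa1 shRNA, against 5.46 and 8.67 RPM with the negative control. It fell by 2.31 (SE 0.37, limma adjusted p = 0.000685). The 23-nt name piR-mmu-10872739 had 0.973 and 0.462 RPM with the Hsp90aa1 shRNA, against 3.30 and 4.48 RPM with the negative control, and fell by 1.52 (SE 0.34, limma adjusted p = 0.0021). The 22-nt name piR-mmu-10887287 had 0.748 and 0.277 RPM with the Hsp90aa1 shRNA, against 1.54 and 5.08 RPM with the negative control, and fell by 1.40 (SE 0.41, limma adjusted p = 0.00849). Without Hsp90aa1 shRNA B the limma adjusted p of the 22-nt name was 0.0576, within a range of 4.44e-06 to 0.0576 over the fits that leave out a library. The other 8 tested names of both loci passed in each of those fits.

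For Mir143 and Mir204, chosen in that comparison, the values are a description. The 22-nt 3p name of Mir143, piR-mmu-48713555 at 18:61649198–61649219, had 503 and 110 RPM with the Hsp90aa1 shRNA, against 1697 and 3078 RPM with the negative control (log2 fold change −3.27). The 21-nt name piR-mmu-48711184, 299 and 61.0 RPM against 1174 and 2329 RPM with the negative control, had −3.60. The 20-nt name piR-mmu-48765763, 139 and 24.0 RPM against 515 and 1269 RPM with the negative control, had −3.77. These 3 names share a 5′ end and hold most of the locus. They were not listed for MC-LR, where the sum rests on 23-nt forms, so whether they changed under MC-LR cannot be read from these data. The 5p name piR-mmu-33875642 had 0.823 and 0.185 RPM with the Hsp90aa1 shRNA, against 3.30 and 5.90 RPM with the negative control (−1.89). Over all 13 names the log2 fold changes ran from −3.77 to −1.12, with a median of −2.32, beside −1.66 over all names tested. By edgeR with library totals the 2 medians lay closer together, at −3.09 and −2.83. The smallest were those of the 2 names whose 5′ end lies 1 base downstream, piR-mmu-48892536 and piR-mmu-48891366 (both −1.12). The names piR-mmu-48711184 and piR-mmu-48765763 also had a second locus, at 4:151032549–151032569 and 11:117739086–117739105. At the first of these the listed levels were 2.69 and 0.923 RPM with the Hsp90aa1 shRNA, against 7.003 and 13.5 RPM with the negative control. At the second they were 2.096 and 0.185 RPM with the Hsp90aa1 shRNA, against 0.515 and 1.57 RPM with the negative control, so the groups overlapped there. Both loci were far under the levels at Mir143.

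Of the 5 Mir204 names 4 were tested and the 20-nt name was under the minimum of 1 RPM. The mature-length name piR-mmu-48724873 had 2.77 and 0.923 RPM with the Hsp90aa1 shRNA, against 23.1 and 41.2 RPM with the negative control (log2 fold change −3.56). The 23-nt name piR-mmu-36971037 had 1.20 and 0.0923 RPM with the Hsp90aa1 shRNA, against 13.1 and 17.5 RPM with the negative control (−3.38), and the 24-nt name piR-mmu-17599573 had 0.225 and 0.462 RPM, against 12.7 and 19.8 RPM with the negative control (−3.66). The Hsp90aa1 shRNA values of the 24-nt name are 3 and 5 reads, and the 23-nt name had 1 read in library B. The 21-nt name piR-mmu-49725425 had 0.674 and 0.185 RPM with the Hsp90aa1 shRNA, against 2.27 and 4.11 RPM with the negative control (−1.54).

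How far each fall exceeds that of the list depends on the scaling. Scaling within the list, by median centring, TMM factors or DESeq2 size factors, gave the whole MC-LR list a median of 0.11, 0.06 and 0.04 in place of −1.17, and the whole shRNA list a median of 0.17, −0.03 and 0.03 in place of −1.66. On these 3 scales all 5 Mir143 names were above 0 under MC-LR and none passed, though DESeq2 gave no adjusted p for piR-mmu-22902278. With the Hsp90aa1 shRNA, none of the 9 tested Mir125a and Mir210 names passed when median centred or with TMM factors. DESeq2 gave no adjusted p for the Mir210 names or for piR-mmu-49250958, piR-mmu-48870248 and piR-mmu-10889166 of Mir125a, and the other Mir125a names did not pass there. There the Mir125a median stayed below 0 at −1.53, −1.65 and −1.60, whereas that of Mir210 was 0.32, 0.10 and 0.13. The 25-nt Mir125a name was above 0 when median centred (0.31) and below 0 on the other 2 scales. Mir204, as a description, had medians of −0.06, 0.24 and 0.25 under MC-LR and −1.64, −1.56 and −1.54 with the Hsp90aa1 shRNA. Mir125a and Mir210 had medians of −0.49, −0.33 and −0.35 and of −0.57, −0.63 and −0.64 under MC-LR.

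**Figure D3:**
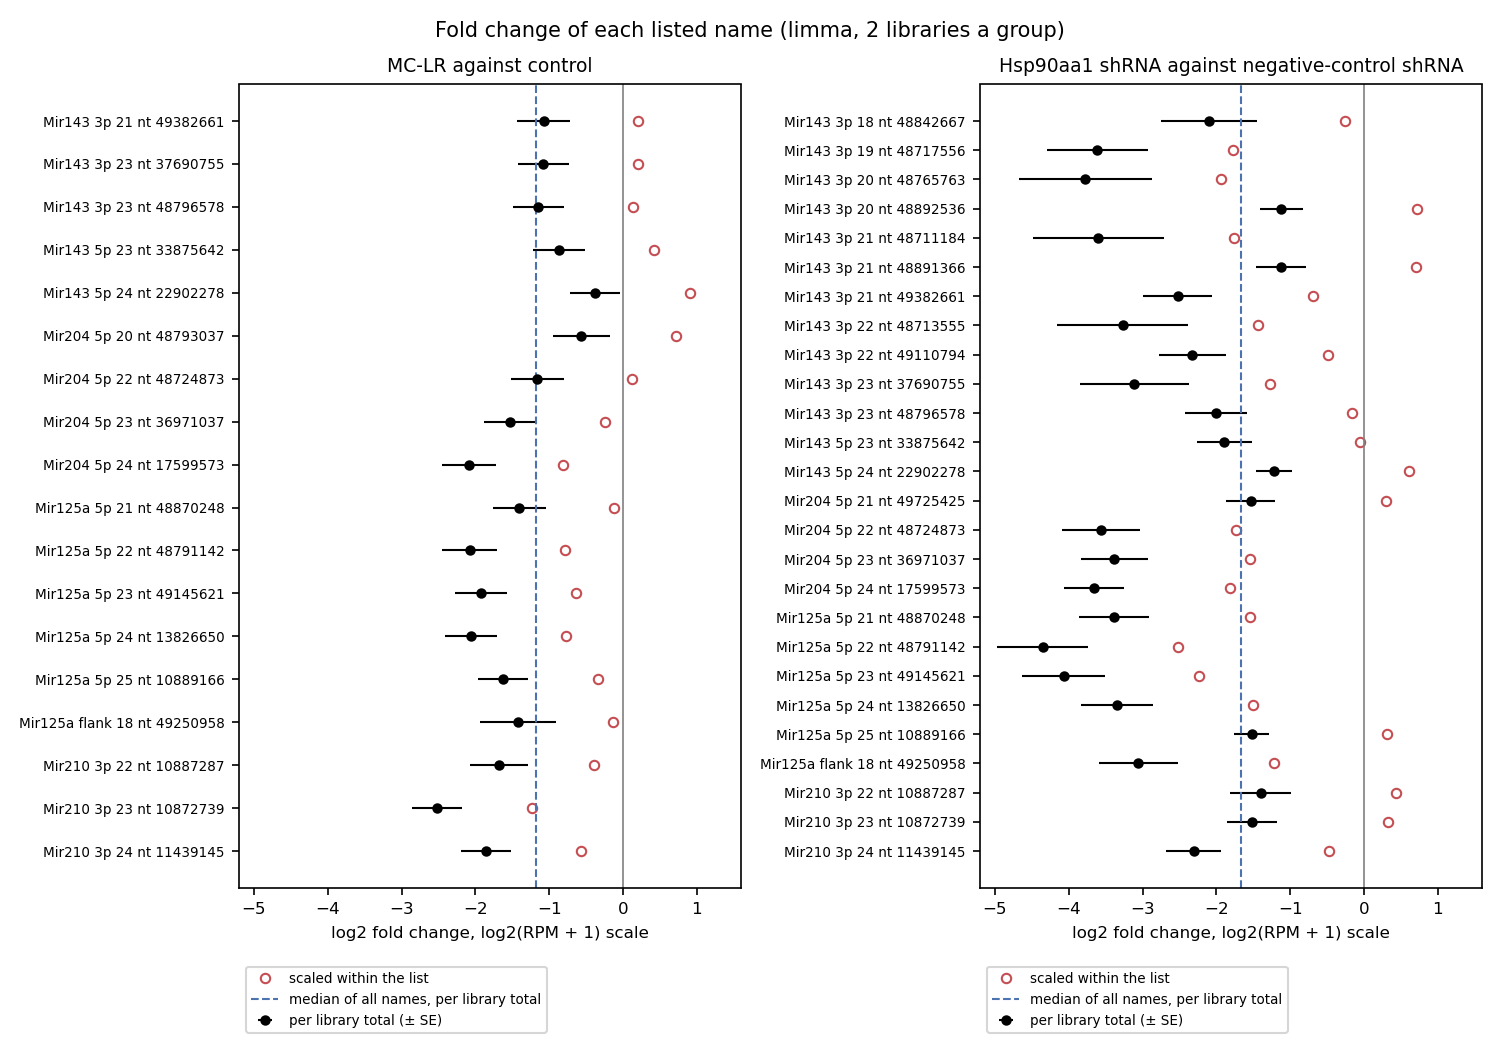
Log2 fold change of each listed name on the log2(RPM + 1) scale, per library total (black, ± SE, limma) and with each library centred on the median of the list (red circles), for MC-LR against control (left) and Hsp90aa1 shRNA against negative-control shRNA (right). The dashed line is the median of all names per library total, −1.17 and −1.66, and the red circles of the 5 Mir143 names on the left lie above 0.

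The same contrast appears in the share of each locus in the summed list, which does not use the library total. Mir143 made up 0.0779% and 0.101% of the list under MC-LR, against 0.0706% and 0.0561% in control, and was higher without overlap. Mir210 made up 0.00526% and 0.00702% under MC-LR, against 0.0111% and 0.00971% in control, and was lower without overlap. The shares of Mir204 (0.0335% and 0.0370% under MC-LR, against 0.0383% and 0.0285% in control) and of Mir125a (0.0955% and 0.127% under MC-LR, against 0.174% and 0.122% in control) overlapped. With the Hsp90aa1 shRNA it was Mir204 and Mir125a whose shares did not overlap. Mir204 made up 0.0101% and 0.00551%, against 0.0185% and 0.0258% with the negative control, and Mir125a 0.0377% and 0.0255%, against 0.0784% and 0.110% with the negative control. Mir143 (2.01% and 0.662%, against 1.30% and 2.18% with the negative control) and Mir210 (0.00496% and 0.00377%, against 0.00370% and 0.00561% with the negative control) overlapped. Names overlap along a hairpin, and whether they share reads was not tested.

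The mix of lengths at a locus, which uses neither scaling, differed between groups at Mir204. Names of 23 and 24 nt, which run past the mature 3′ end, held 39.9% and 38.2% of the Mir204 reads under MC-LR, against 49.2% and 52.8% in control. The exact 95% binomial intervals were 33.8 to 46.3% and 32.6 to 44.2% under MC-LR, and 47.1 to 51.4% and 48.3 to 57.3% in control. With the Hsp90aa1 shRNA the share was 28.4% and 31.6%, against 49.9% and 44.5% with the negative control, with intervals of 18.01 to 40.7% and 12.6 to 56.6% against 45.4 to 54.4% and 41.5 to 47.4%. Groups did not overlap in either comparison, but the Hsp90aa1 shRNA shares rest on 67 and 19 reads, and that of library B spans both negative-control values. These intervals cover counting error only. Since the 24-nt name is one of those the locus was chosen for, its share is a description.

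At Mir210 the 24-nt form held 69.2% and 64.8% of reads under MC-LR (39 and 54 reads; intervals 52.4 to 83.0% and 50.6 to 77.3%), against 51.5% and 55.9% in control (47.5 to 55.5% and 48.1 to 63.5%). With the Hsp90aa1 shRNA it held 30.3% and 38.5% (33 and 13 reads; intervals 15.6 to 48.7% and 13.9 to 68.4%), against 53.0% and 47.5% with the negative control (42.8 to 63.1% and 41.1 to 54.0%). The 24-nt share was thus on the higher side under MC-LR and on the lower side with the Hsp90aa1 shRNA, at read numbers where the intervals of every pairing of libraries meet. Most of the Mir125a mix lay in its 22-nt form, which held 52.3% ± 2.15 under MC-LR and 54.96% ± 5.32 in control, and 54.3% ± 3.25 with the Hsp90aa1 shRNA and 57.1% ± 2.73 with the negative control (SD, n = 2 each), with overlap in both comparisons. Some of its other lengths did not overlap. The 21-nt form held 9.06% and 7.72% of its 5p reads under MC-LR (exact intervals 7.02 to 11.5% and 6.08 to 9.64%), against 5.75% and 5.77% in control, and the 25-nt form 0.439% and 0.543%, from 3 and 5 reads, against 0.571% and 1.06% in control. The 24-nt form held 14.2% and 14.5% with the Hsp90aa1 shRNA (246 and 83 reads in all; intervals 10.1 to 19.2% and 7.70 to 23.9%), against 10.6% and 9.69% with the negative control. Forms shorter than the mature thus held 84.6% ± 0.440 with the Hsp90aa1 shRNA and 89.04% ± 0.793 with the negative control (SD, n = 2 each). On the Mir143 3p side the 22-nt names held 51.5% ± 1.54 of reads with the Hsp90aa1 shRNA and 45.4% ± 2.53 with the negative control, and the 20-nt names 12.7% ± 1.69 and 16.1% ± 2.58 (SD, n = 2 each), with no overlap. The 5p side of Mir143 held 2.28% ± 0.0387 of its reads under MC-LR and 2.32% ± 0.391 in control, and 0.122% ± 0.0138 with the Hsp90aa1 shRNA and 0.122% ± 0.0121 with the negative control (SD, n = 2 each).

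**Figure D4:**
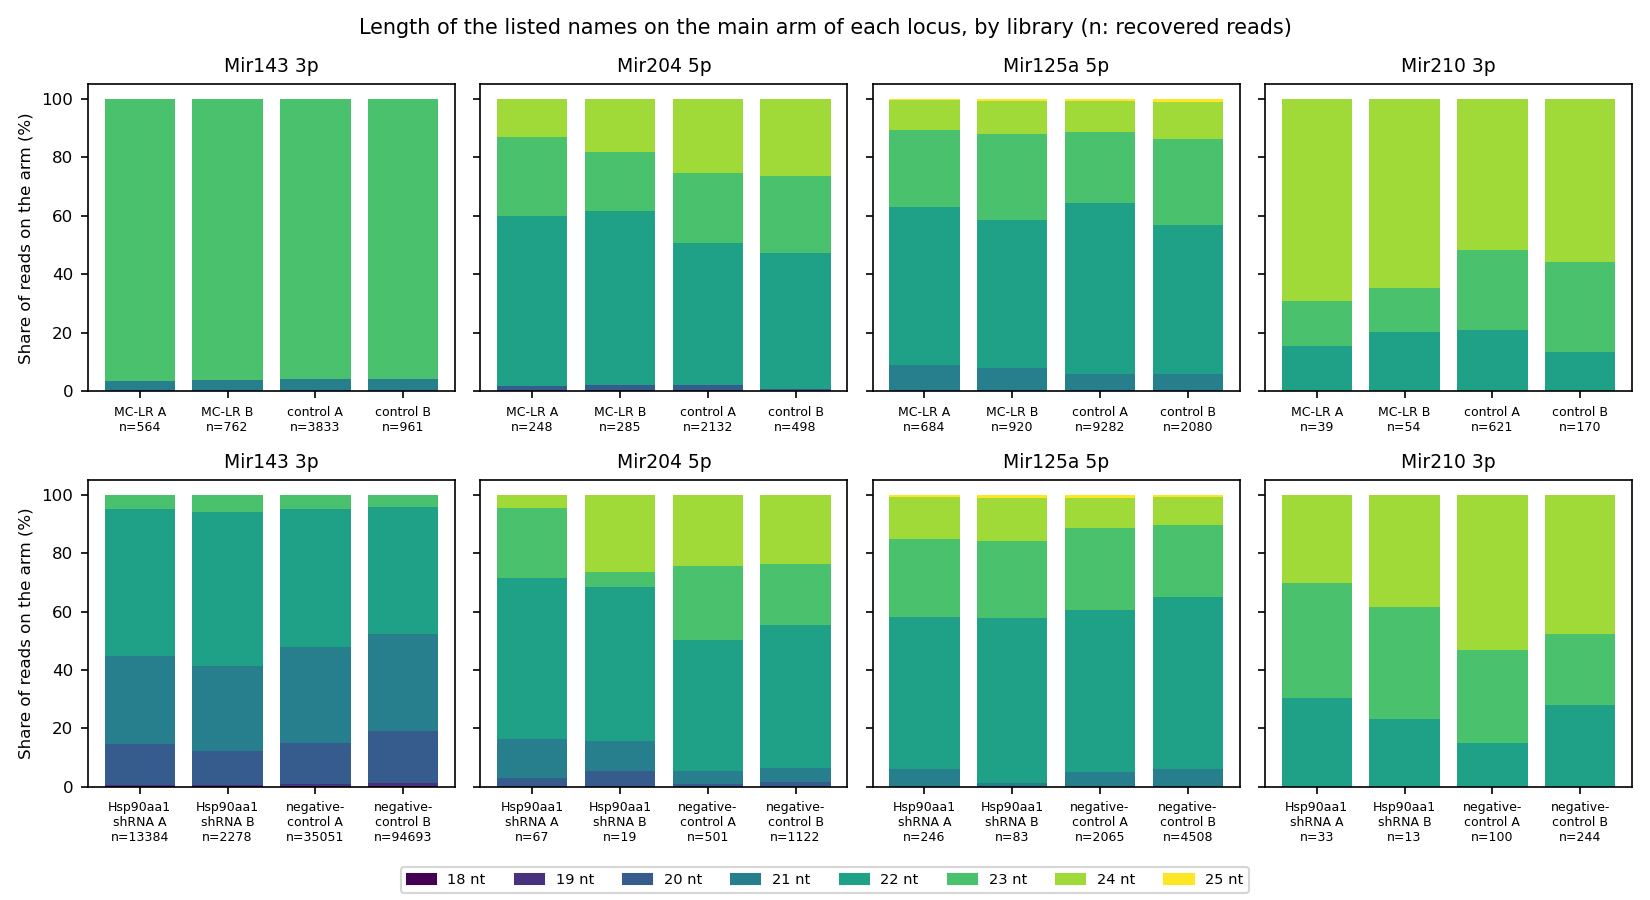
Share of recovered reads by fragment length on the main arm of each locus (percent, stacked bars from 0 to 100), one bar per library with its number of reads, MC-LR beside control in the upper row and Hsp90aa1 shRNA beside negative-control shRNA in the lower row. At Mir204 the 23 and 24 nt bands together are smaller in the MC-LR and Hsp90aa1 shRNA bars than in their controls, and at Mir125a the 22 nt band is the tallest in all 8 bars, with a taller 21 nt band in both MC-LR bars than in the control bars.

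Over the names that both tables list, the order of the groups could be set, with the reserve that the tables were listed and scaled apart. Mir204 came to 4.34 and 1.57 RPM with the Hsp90aa1 shRNA, 41.7 and 43.4 RPM under MC-LR, 49.3 and 79.7 RPM with the negative-control shRNA and 146 and 100.4 RPM in control, and no neighbours in that order overlapped. Mir125a and Mir210 had the same order without overlap, since their sums above are over names of both tables. Mir143 came to 51.7 and 13.02 RPM with the Hsp90aa1 shRNA, 97.1 and 119 under MC-LR, and overlapped between the negative control (190 and 304 RPM) and control (269 and 198 RPM). The difference between the 2 effects, MC-LR minus shRNA, was taken on the log2(RPM + 1) scale. It was above 0 for 15 of the 18 names, with a median of 1.37. Over the 10600 names of both tables it was above 0 for 7485, with a median of 0.38. Among the 18 names it was largest on that scale at the mature-length Mir204 name piR-mmu-48724873 (2.40, SE 0.61). It was below 0 for piR-mmu-10872739 (−1.003, SE 0.41) and piR-mmu-10887287 (−0.28, SE 0.62) of Mir210 and for piR-mmu-10889166 of Mir125a (−0.10, SE 0.35). These values are on log2(RPM + 1), which understates the change of such low names. By edgeR with library totals, piR-mmu-10889166 had −2.61 under MC-LR and −4.06 with the Hsp90aa1 shRNA. There piR-mmu-10887287 had −2.34 and −2.65, so both fell more with the shRNA. Only piR-mmu-10872739 kept its order, at −3.30 under MC-LR and −2.40 with the shRNA. There piR-mmu-48724873 had −1.23 and −4.10, a smaller gap than that of the 24-nt Mir204 name piR-mmu-17599573, at −2.24 and −5.55. The place of the largest difference thus depends on the scale. Over all names tested in each comparison the edgeR medians, −1.64 and −2.83, also lay further apart than the −1.17 and −1.66 on log2(RPM + 1). These differences are given without a test.

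Other microRNA genes give the setting. Of 457 tested names on microRNA genes, 330 passed as lower and 1 as higher in MC-LR sperm (limma adjusted p below 0.05), with a median log2 fold change of −1.08. With the Hsp90aa1 shRNA, 1121 of 1126 were lower and 0 higher, with a median of −1.97. Of the genes that share a transcript or a seed with the members, Mir145a, Mir99b, Mirlet7e, Mir125b-1 and Mir125b-2 were listed and Mir211 had no listed name in either comparison. Here and below, a name is counted as lower only if it passed at that threshold, and the other names may have fallen without passing. The names of these genes were lower in 11 of 17 cases under MC-LR, with a median of −1.06, and in 24 of 24 with the Hsp90aa1 shRNA, with a median of −2.77. Mir99b, the neighbour of Mir125a, came to 116 and 105 RPM under MC-LR, against 331 and 214 RPM in control, and all 3 of its names were lower. Mirlet7e, the other neighbour, had 1 of 4 names lower, at 3353 and 2807 RPM under MC-LR, against 5585 and 3427 RPM in control, and 3 of these names also have another locus. Mir125b-1, which carries the Mir125a seed, had 6 of 6 names lower, at 131 and 183 RPM under MC-LR, against 577 and 398 RPM in control, although each of these names also has another locus. Mir145a, the neighbour of Mir143, had 1 of 3 names lower, at 10.6 and 14.2 RPM under MC-LR, against 28.5 and 21.0 RPM in control. In the shRNA table all 9 Mir145a names were lower, at 19.9 and 8.86 RPM with the Hsp90aa1 shRNA, against 67.8 and 95.4 RPM with the negative control. Of 15 microRNA genes known from sperm and germ cells, only 4 were listed for MC-LR, Mir10a, Mir10b, Mir148a and Mir21a. The others, among them Mir34b, Mir34c, Mir741 and Mir743b, had no listed name there. Of the names of the 4 genes, 7 of 17 were lower under MC-LR, beside 73.1% of all tested names. With the Hsp90aa1 shRNA 156 of 157 names of 15 genes were lower, beside 99.5%.

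Names of microRNA genes known from other cells that a sperm sample could hold were counted in the same way, beside 73.1% of all tested names lower under MC-LR and 99.5% with the Hsp90aa1 shRNA, so the full counts in the shRNA table are those of the whole list. For epithelium (the Mir200 family, Mir205 and Mir203) 24 of 27 names were lower under MC-LR, at 2462 and 2546 RPM against 6563 and 4830 RPM in control, and 34 of 34 with the Hsp90aa1 shRNA, at 413 and 113 RPM against 2659 and 3912 RPM with the negative control. For smooth muscle and stroma, beside Mir143 itself and Mir145a above, the Mir199a names were lower in 11 of 12 cases, at 80.3 and 138 RPM under MC-LR against 380.1 and 244 RPM in control, and in 12 of 12, at 32.9 and 7.57 RPM with the Hsp90aa1 shRNA against 119 and 221 RPM with the negative control. For leukocytes 2 of 7 passed as lower, at 8.25 and 13.4 RPM under MC-LR against 22.3 and 22.4 RPM in control, and 13 of 13, at 33.0 and 13.3 RPM with the Hsp90aa1 shRNA against 102 and 204 RPM with the negative control. For red blood cells it was 1 of 1, at 0.505 and 1.07 RPM under MC-LR against 1.91 and 3.02 RPM in control, and 18 of 18, at 133 and 118 RPM with the Hsp90aa1 shRNA against 1319 and 2207 RPM with the negative control. For striated muscle it was 2 of 3, at 165 and 158 RPM under MC-LR against 407 and 220 RPM in control, and 5 of 5, at 29.9 and 10.9 RPM with the Hsp90aa1 shRNA against 148 and 250 RPM with the negative control. Mir122 (liver), Mir214, Mir150 and Mir206 had no listed name in either comparison, nor had Mir144, Mir486 and Mir133a for MC-LR or Mir223 and Mir155 for the shRNA. The part that such cells have in the member values was not tested.

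The microRNA names with the pattern most like each lead were found by the root mean square difference of log2(RPM + 1), centred on its mean over 4 libraries, among 448 names of other microRNA genes in the MC-LR table and 1127 in the shRNA table. In the MC-LR table Mir345, Mir26b and Mir6236 were nearest to the Mir143 lead (0.0256 to 0.0399), and a Mir148a name was nearest to the leads of Mir204 (0.0128) and, with another name, of Mir210 (0.0373). Mir222 was nearest to the Mir125a lead there (0.122). In the shRNA table Mir200a was nearest to the lead of Mir143 (0.0443), Mir34b to that of Mir204 (0.0669) and Mir486 to that of Mir125a (0.141). For Mir210 it was a Mir145a name, piR-mmu-49385570 (0.0589), with 0.748 and 0.554 RPM with the Hsp90aa1 shRNA, against 5.15 and 8.45 RPM with the negative control. With 4 libraries in a table, such likeness is a description.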

How the data were processed

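Per the labels' protocols, RNA of sperm was extracted with Trizol and made into libraries with a NEBNext kit. The submitters' processing notes name the mm10 build, HTSeq 0.6.0, HISAT2 2.1.0 and Bowtie2 2.2.3; the role of each, the trimming of reads and the rule for listing names are not given there. The authors deposited 2 tables of RPM, each for 2 groups of 2 libraries, and columns were matched to samples by group and replicate letters. The RPM values gave back whole reads in 100% of cases (within 0.01 of a read). Coordinates, 0-based in the tables, are printed 1-based, and each name was used once, at its locus with the highest mean.

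The main test was limma 3.58.1 (trend, robust) in R 4.3.3 on log2(RPM + 1), each table alone, for names that averaged 1 RPM or more in a group, with Benjamini-Hochberg adjustment at 0.05 over the table. Fold changes on that scale understate the change of low names. Alternatives were a pseudocount of 0.1, other filters, median centring, edgeR 4.0.16 and DESeq2 1.42.0 on the recovered reads, a replicate block and leaving out each library; shares of the summed list and a crossed block were added after seeing the data. With library totals, edgeR gave 10004 lower and 314 higher names for MC-LR, and 16700 lower and 37 higher ones for the Hsp90aa1 shRNA. The fits were tested on simulated data with known changes, up or down, in 196 of 13076 tested names for MC-LR and 200 of 16985 for the shRNA. There limma recovered 94.4% and 97.5% of them, with 9 and 3 false calls. The scatter between simulated libraries was set to the same value for every name and not taken from these data. These rates thus need not hold here. A fall of most of the list, as seen here, was not simulated, so the calls in that setting were not tested.

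Names on microRNA genes were those with at least a share of 0.5 of their best locus on the gene's strand. Names printed were the most abundant on each arm, those in both tables and those with the extreme changes of a window, the rest being given by count and range. The members, lists and tests were chosen with earlier results of these data known. Intervals and floors (3 reads) cover counting error only. Tables were read with Python 3.11.15 and pandas 2.3.3.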

Additional observations from a re-analysis of the deposited data

How the results depend on the processing

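Per library total, the summed loci kept their direction under the alternatives run, but no tested name passed with scaling within the list. DESeq2 gave some of these names no adjusted p. The cause of the differences below was not tested, other than that a filter at 10 RPM tests fewer names. With that filter 4551 names were lower and 73 higher under MC-LR, and 4293 and 5 with the Hsp90aa1 shRNA. Lower names numbered 655 and 69 when median centred, 296 and 14 with TMM factors and 394 and 133 with DESeq2 size factors (MC-LR and shRNA). Leaving out 1 library in turn, lower names ran from 5259 to 10787 and higher ones from 314 to 316 under MC-LR, and from 14367 to 16116 and 36 to 37 with the shRNA.

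As log2 ratios of the share of the summed list, Mir143 came to 0.50 and Mir204 to 0.080 under MC-LR, Mir125a to −0.41 and Mir210 to −0.76, and with the Hsp90aa1 shRNA Mir143 to −0.38, Mir204 to −1.51, Mir125a to −1.58 and Mir210 to −0.093. With only the most abundant name of each arm, Mir204 came to −1.23 and Mir210 to −2.05 under MC-LR. Without 1 library, the log2 ratio of the sums ran under MC-LR from −1.32 to −0.87 for Mir143, −1.77 to −1.24 for Mir204, −2.31 to −1.68 for Mir125a and −2.55 to −2.21 for Mir210. With the shRNA it ran from −4.67 to −2.42, −5.27 to −3.76, −5.15 to −3.94 and −3.57 to −2.49.

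Names tested above turned above 0 as follows, when median centred, with TMM factors and with DESeq2. Under MC-LR these were piR-mmu-22902278 (0.91, 0.44 and 0.54), piR-mmu-33875642 (0.42, 0.52 and 0.50), piR-mmu-37690755 (0.21, 0.62 and 0.60), piR-mmu-48796578 (0.13, 0.26 and 0.25) and piR-mmu-49382661 (0.21, 0.44 and 0.42). With the shRNA they were piR-mmu-10872739 (0.32, 0.38 and 0.42), piR-mmu-10887287 (0.44, 0.10 and 0.13) and, when median centred, piR-mmu-10889166 (0.31).

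Replicate letters came from the titles. Same-lettered libraries deviated with a correlation of 0.06 for MC-LR and −0.60 for the shRNA, so the letters were not taken to pair the libraries. With the replicate block 9554 names were lower and 315 higher under MC-LR, and 16252 and 37 with the shRNA; with the crossed pairing in the replicate block it was 16822 and 37.

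With 2 libraries a group, the depth limits low names most: Hsp90aa1 shRNA values under 0.225 RPM in library A and 0.277 RPM in library B are below 3 reads, and 1 library left alone in a group was taken to vary like the other group.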
